A study of Homo sapiens with 12 samples.

Results

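The genes followed here encode 7 cytoplasmic intermediate filament proteins of neurons and neural progenitors: PRPH, VIM, NEFL, NEFM, NEFH, INA and NES. They were taken by symbol from a table of 59087 features, and all 7 were found. The cells were of the human neuroblastoma line SH-SY5Y, whose cells resemble immature sympathetic neurons. Wild-type cells were set against 3 independently made lines, numbered 1 to 3, in which FMR1, the gene of the RNA-binding protein FMRP, had been knocked out. For 2 weeks both genotypes grew in SILAC medium with 10% dialyzed serum that held either isotope-labelled lysine and arginine (heavy) or the ordinary amino acids (light). Poly(A) RNA was sequenced from 12 libraries, 3 for each genotype in each medium. Each knockout line gave 1 library per medium; the labels do not say whether the wild-type libraries of a medium came from separate cultures, so p-values may measure technical spread. Every line differs from the wild-type cells both in FMR1 and in having been made into a line, and these cannot be told apart.

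Intermediate filaments are ropes of coiled-coil proteins that give a cell its mechanical strength. In axons the light, medium and heavy neurofilament proteins (NEFL, NEFM and NEFH) copolymerise with alpha-internexin (INA) or, in peripheral neurons, with peripherin (PRPH), and the long tails of NEFM and NEFH space the filaments and help to set axon calibre. Vimentin (VIM) and nestin (NES) form the filaments of progenitors and are usually replaced by neuronal filaments as neurons mature; vimentin is also the filament of mesenchymal cells.

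Levels below are CPM, counts scaled to the normalised library size. Log2 fold changes carry their standard error (SE), and an adjusted p is that of edgeR's quasi-likelihood test with Benjamini-Hochberg adjustment over all genes tested, called at 0.05. Libraries held 25935152 to 40257027 counts. FMR1, the targeted transcript, lay at 35.9 to 42.0 CPM in wild type and 7.19 to 22.4 CPM in knockout. Its highest knockout value was that of line 1 in heavy medium, against 11.4 CPM for the same line in light medium. Over 16704 genes the deviations of the 2 libraries of line 1 from their group means had a correlation of 0.0886, against 0.618 for line 2 and 0.661 for line 3. A line that lies near the mean of the knockout libraries can have a low correlation for that alone. The low value therefore does not by itself show that the libraries of line 1 disagree. The values of line 1 against wild type are given without its heavy library as well. All 10 markers of neuroblasts and sympathetic cells were detected, at a summed 7050 to 7900 CPM in wild type and 5320 to 7260 CPM in knockout. In bulk RNA, fewer cells that make a transcript and less transcript per cell cannot be told apart.

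Wild-type cells held transcripts of neuronal and of progenitor filaments. Scaled by summed exon length (RPKM, computed here), INA was the most abundant member at 82.0 ± 1.67 RPKM (SD, n = 6), ahead of NES at 65.6 ± 2.19, NEFM at 52.1 ± 4.72, NEFL at 41.4 ± 2.05 and NEFH at 24.7 ± 0.827 RPKM. VIM was far below them at 4.26 ± 0.314 RPKM, and PRPH stood at 0.0473 ± 0.0126 RPKM. No neighbours in this order were within an SD of each other, but that SD is between libraries and leaves out error in exon length. In CPM, without length scaling, NES was ahead of INA, at 365 against 265 CPM. Each of the 6 wild-type libraries held only 5 to 11 reads of PRPH.

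Over both media, 6 of the 7 genes passed the test. PRPH, VIM, NES and NEFH were higher in knockout, NEFM and INA were lower, and NEFL did not pass. Of all genes tested 24.8% passed, 15.0% higher and 9.78% lower. The median log2 fold change of the 7 genes was 0.17, against 0.003 over all genes. The members and the gene lists below were chosen with earlier results of these data known. Counts of them set beside shares of all genes, here and below, are therefore descriptions and not tests of the group. PRPH passed the filter on low counts only through the knockout libraries, so that a gene so low in wild type had to differ in order to be tested. Without the heavy library of line 1, PRPH (5.42, adjusted p = 0.00495), VIM (1.17, 0.011), NES (0.36, 0.00834) and INA (-0.19, 0.0224) passed. NEFM (-0.53, 0.0555), NEFH (0.14, 0.0628) and NEFL (0.20, 0.0734) did not, and 22.4% of all genes did. The fit treats the libraries of a line as independent. With counts summed per line, so that each line entered once, 0 of the 7 passed, where 1.53% of all genes did. On the sums 5 of the 7 had an unadjusted p under 0.05 in edgeR. The share of all genes at that level was not counted on the sums, so the 5 have no background. In the fit of all 12 libraries 39.2% of all genes reached it. No other tool was run on the sums. Within heavy or light medium alone 0 of the 7 passed in edgeR as well, with 5 at an unadjusted p under 0.05 in each medium, a level that 17.9% of all genes reached in heavy and 25.2% in light medium. After adjustment 0.112% of all genes passed in heavy and 1.44% in light medium, the latter as 0.906% higher and 0.537% lower. DESeq2 called 3 of the 7 in each medium, among 809 of 16083 genes in heavy and 1723 of 16010 in light medium, and limma-voom called 0.

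**Figure D1:**
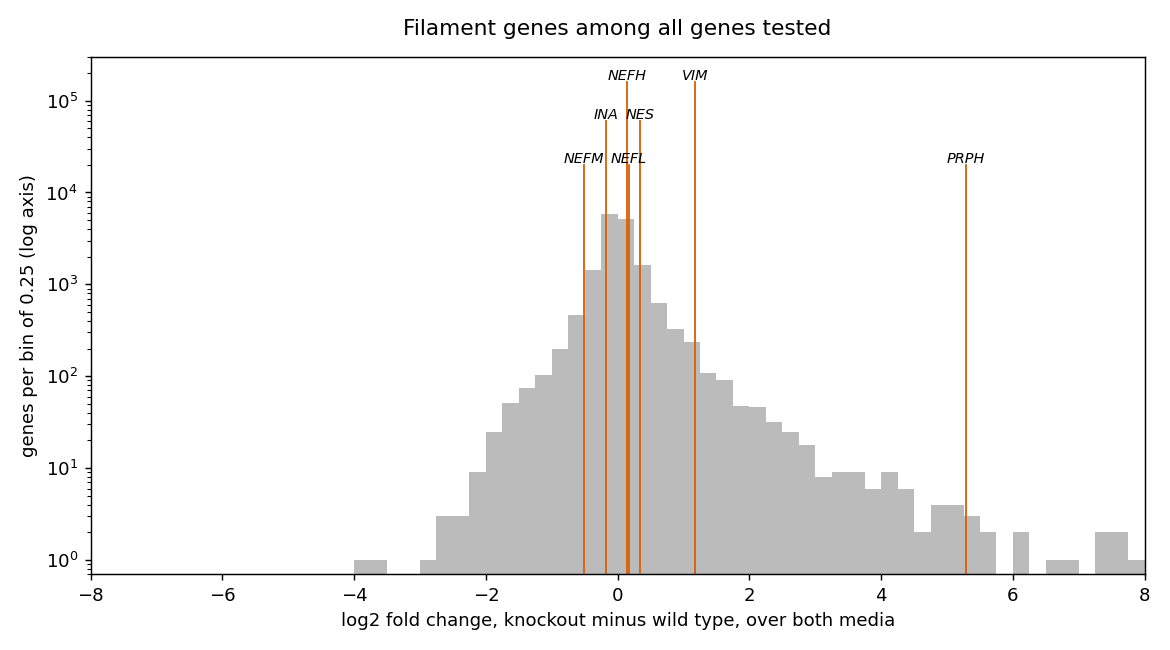
Histogram of log2 fold changes, knockout minus wild type over both media, for all 16704 genes tested (horizontal axis; 1 gene beyond 8 is drawn in the outermost bin), with the number of genes per bin on a log axis. Vertical lines mark the 7 filament genes: PRPH lies far to the right at 5.28, VIM at 1.18, and the others between -0.51 and 0.34.

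PRPH, the filament of peripheral and sympathetic neurons, showed the greatest change of the 7. Its gene (ENSG00000135406.13) spans 49293252 to 49298686 on the plus strand of chromosome 12 (GRCh38, GENCODE 29). In heavy medium the wild-type libraries had 0.203, 0.226 and 0.306 CPM, and lines 1, 2 and 3 had 5.09, 17.3 and 1.47 CPM. In light medium the wild-type libraries had 0.164, 0.173 and 0.165 CPM, and lines 1, 2 and 3 had 8.03, 15.9 and 1.62 CPM. All 6 knockout libraries lay above all 6 wild-type libraries, with line 2 highest and line 3 lowest in both media. The log2 fold change over both media was 5.28 (SE 0.824, adjusted p = 0.00304), and 12 of the 16704 genes, 0.0718%, had a greater absolute change. On counts summed per line it was 5.30 (adjusted p = 0.0746). With limma-voom over both media it was 4.63 (adjusted p = 0.0502) and not called. PRPH was tested only because its knockout libraries were high enough to pass the filter. Its rank, its separate ranges and its p-values, here and by line, depend on that condition and are descriptions.

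Each line on its own, with 2 libraries against 6 in a fit of all 12, was above wild type. The PRPH log2 fold change was 4.95 for line 1 (SE 0.206, adjusted p = 6.09e-12). It was greater for line 2, at 6.31 (SE 0.186, adjusted p = 3.22e-14), and smaller for line 3, at 2.88 (SE 0.269, adjusted p = 2.01e-06). Without the heavy library of line 1 that line had 5.30 (adjusted p = 4.93e-14). For lines 1, 2 and 3 in turn, 15.4%, 22.9% and 3.27% of all genes passed as higher, and 12.8%, 20.1% and 1.73% as lower. Line 2 was 10.8-fold above line 3 (adjusted p = 7.67e-06) and line 1 was 4.19-fold above it (adjusted p = 0.000712), and lines 1 and 2 differed too (adjusted p = 0.00582). Between those 3 pairs of lines 18.2%, 4.9% and 0.833% of all genes passed. An annotated antisense gene, AC125611.4, shares 2445 exon bases with PRPH and was named for that overlap after its values were seen. It had 0 counts in every wild-type library, and knockout counts, heavy before light, of 4 and 4 (line 1), 10 and 9 (line 2) and 0 and 1 (line 3). Whether reads were counted by strand was not stated in the sources used here, so the sense and antisense counts may share reads.

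RefSeq's promoter table (GRCh38.p14) held 4 of the 7 genes. The stretch from 45 to 16 bases before the RefSeq start is shown for these 4, of which PRPH, VIM and NES were higher in knockout and INA was lower, to set neuronal and progenitor filament promoters side by side; capitals mark TATAAA.
PRPH, chr12:49295102-49295131, plus strand: tgagaccgcagggcTATAAAgccgcctcgc
VIM, chr10:17228196-17228225, plus strand: ggcggggactctgcaagaaaaaccttcccg
NES, chr1:156677423-156677452, minus strand: cgcctggcgggagtatgaatagcctcgctc
INA, chr10:103277093-103277122, plus strand: gccccagccccggcgccttaaaagccgggc

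Motifs were searched on both strands of the 250 bases before the start, among 35116 promoters. TATAAA was found once in PRPH, beginning 31 bases before the start, and not in the VIM, NES or INA window; 10.7% of all promoters held it. GGGCGG was found 4 times for INA, 2 times for NES, 1 time for VIM and 0 times for PRPH, against a share of 42.6% of promoters with a match. CANNTG, in 61.8% of promoters, had 1 match for PRPH, 2 for INA and 0 for NES and VIM, and CCAAT, in 32.0%, had none in these 4 windows. No match overlapped one of another motif. The nearest start of a coding transcript in GENCODE 29 lies 215 bases from RefSeq's for PRPH, 25 for INA, 18 for VIM and 10 for NES. For VIM another coding transcript, VIM-201, starts 1037 bases further on than the RefSeq start.

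VIM, which encodes vimentin (ENSG00000026025.15; chromosome 10, 17228259 to 17237593, plus strand), was higher in every knockout library. In heavy medium the wild-type libraries had 22.2, 22.8 and 23.2 CPM, and lines 1, 2 and 3 had 48.9, 59.6 and 31.1 CPM. In light medium the wild-type libraries had 20.6, 23.5 and 19.5 CPM, and the lines 70.0, 59.7 and 29.0 CPM. The ranges of the 2 genotypes did not overlap; 6.54% of all genes tested had every knockout library above every wild-type library. Over both media the log2 fold change was 1.18 (SE 0.216, adjusted p = 0.00522; 0.0854 on counts summed per line). Lines 1 and 2 had nearly the same change, 1.43 (SE 0.101, adjusted p = 5.59e-08) and 1.44 (SE 0.102, adjusted p = 1.99e-08), and the difference between them was -0.02 (SE 0.142). Line 3 rose less, by 0.45 (SE 0.108, adjusted p = 0.0235), and line 2 was 1.98-fold above it (adjusted p = 0.00325). The call in line 3 was lost without wild-type heavy 1, without wild-type light 1 and without either library of line 3, with an adjusted p up to 0.394. The libraries of line 1 were unlike: the heavy one had 2.15 times and the light one 3.31 times the wild-type level of its medium. Without the heavy library line 1 had a VIM log2 fold change of 1.71 (adjusted p = 6.04e-12).

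NES, the gene of the progenitor filament nestin (ENSG00000132688.10; chromosome 1, 156668763 to 156677397, minus strand), was the third member with every knockout library above every wild-type library. Wild type had 369, 362 and 360 CPM in heavy and 371, 346 and 382 CPM in light medium. Lines 1, 2 and 3 had 424, 547 and 408 CPM in heavy and 478, 518 and 400 CPM in light medium. The change was small beside that of VIM, a log2 of 0.34 over both media (SE 0.074, adjusted p = 0.00696; 0.0942 on summed lines). Line 2 rose by 0.55 (SE 0.0524, adjusted p = 1.57e-07) and line 1 by 0.31 (SE 0.053, adjusted p = 0.000271; 0.40 and 6.34e-05 without its heavy library). Line 3 had 0.15 (SE 0.0535, adjusted p = 0.134) and did not pass, although both its libraries were above the wild-type range. Line 2 exceeded line 3 by 1.32-fold (adjusted p = 0.00759).

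The neurofilament genes did not move as a unit. NEFM, the medium subunit (ENSG00000104722.13; chromosome 8, 24913012 to 24919098, plus strand), was lower, while NEFL, the light subunit that starts filament assembly (ENSG00000277586.2; chromosome 8, 24950955 to 24957110, minus strand), was higher in line 2 alone among the lines tested. For NEFM the wild-type libraries had 253, 251 and 234 CPM in heavy and 215, 206 and 211 CPM in light medium. Lines 1, 2 and 3 had 180, 128 and 201 CPM in heavy and 119, 116 and 216 CPM in light medium. Lines 1 and 2 were below the wild type of the same medium in both media. Line 3 was below it in heavy medium only, and in light medium stood just above the range of the wild-type light libraries.

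Over both media NEFM fell by 0.51 on the log2 scale (SE 0.158, adjusted p = 0.0384), a call that 10 of 12 fits without 1 library did not keep (adjusted p up to 0.0806; kept without either library of line 3) and that was 0.0555 without the heavy library of line 1 and 0.158 on summed lines. With no filter on low counts it was 0.0919. In single lines NEFM had -0.62 in line 1 (SE 0.0952, adjusted p = 0.000256) and -0.90 in line 2 (SE 0.0974, adjusted p = 4.93e-06); without its heavy library line 1 had -0.87 (adjusted p = 2.79e-07). Line 3 had -0.12 (SE 0.0921, adjusted p = 0.551). Line 2 was at 0.578 times the level of line 3 (adjusted p = 0.0381), and the test over all 3 lines gave an adjusted p of 0.0869.

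NEFL had 183, 179 and 175 CPM in wild-type heavy and 195, 170 and 173 CPM in wild-type light libraries. Lines 1, 2 and 3 had 184, 217 and 187 CPM in heavy and 206, 242 and 176 CPM in light medium, so only line 2 was clear of the wild-type range in both. Over both media its log2 fold change was 0.17 (SE 0.0702, adjusted p = 0.0842). Line 2 rose by 0.36 (SE 0.06, adjusted p = 9.92e-05), line 1 had 0.12 (SE 0.0608, adjusted p = 0.155; 0.19 and 0.074 without its heavy library) and line 3 had 0.02 (SE 0.0612, adjusted p = 0.893).

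As a ratio of length-scaled levels, NEFM to NEFL was 1.26 ± 0.114 (SD, n = 6) in wild type. Line 1 had ratios of 0.968 in heavy and 0.57 in light medium, line 2 had 0.581 and 0.472, and line 3 had 1.06 and 1.21. Lines 1 and 2 lay below the lowest wild-type value, 1.09, and line 3 was below it in heavy medium only. A gene annotated antisense to NEFM, AF106564.1, shares 1706 exon bases with it and was named for that overlap after its values were seen. It was higher in knockout: it had 12.4 to 14.9 CPM in wild type and 14.0 to 19.5 CPM in knockout (log2 0.30, SE 0.082, adjusted p = 0.0178).

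NEFH, the heavy subunit (ENSG00000100285.9; chromosome 22, 29480230 to 29491390, plus strand), had its highest values in line 3, where most other members were nearest to wild type. Wild-type libraries had 97.2, 95.7 and 92.2 CPM in heavy and 96.1, 90.4 and 90.0 CPM in light medium. Lines 1, 2 and 3 had 103, 95.7 and 110 CPM in heavy and 104, 96.2 and 109 CPM in light medium. Line 2 overlapped the wild type and lines 1 and 3 did not. Line 3 rose by 0.22 (SE 0.0504, adjusted p = 0.0126), a call lost without either of its libraries (adjusted p up to 0.157). Line 1 rose by 0.14 (SE 0.0506, adjusted p = 0.0431; 0.0904 without its heavy library, and not called in 8 of 12 fits without 1 library), and line 2 had 0.04 (SE 0.0512, adjusted p = 0.613). The test over the 3 lines did not pass (adjusted p = 0.232). Over both media the change was 0.14 (SE 0.0452, adjusted p = 0.042), and 10 of 12 fits without 1 library did not call it (adjusted p up to 0.0953; called without either library of line 2). Nor was it called with RLE scaling factors (adjusted p = 0.0582) or with no filter (0.0866).

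INA, alpha-internexin (ENSG00000148798.10; chromosome 10, 103277163 to 103290351, plus strand), had knockout values that all lay under the wild-type range, by a small margin in line 3. Wild type had 262, 273 and 263 CPM in heavy and 270, 258 and 266 CPM in light medium. Lines 1, 2 and 3 had 238, 208 and 251 CPM in heavy and 228, 226 and 252 CPM in light medium. Of all genes tested 3.99% had every knockout library below every wild-type library. The log2 fold change was -0.18 over both media (SE 0.0477, adjusted p = 0.0162; 0.115 on summed lines). It was -0.29 in line 2 (SE 0.0494, adjusted p = 0.000115), -0.19 in line 1 (SE 0.049, adjusted p = 0.00794; 0.0152 without its heavy library, 0.224 without its light library) and -0.08 in line 3 (SE 0.0487, adjusted p = 0.438).

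**Figure D2:**
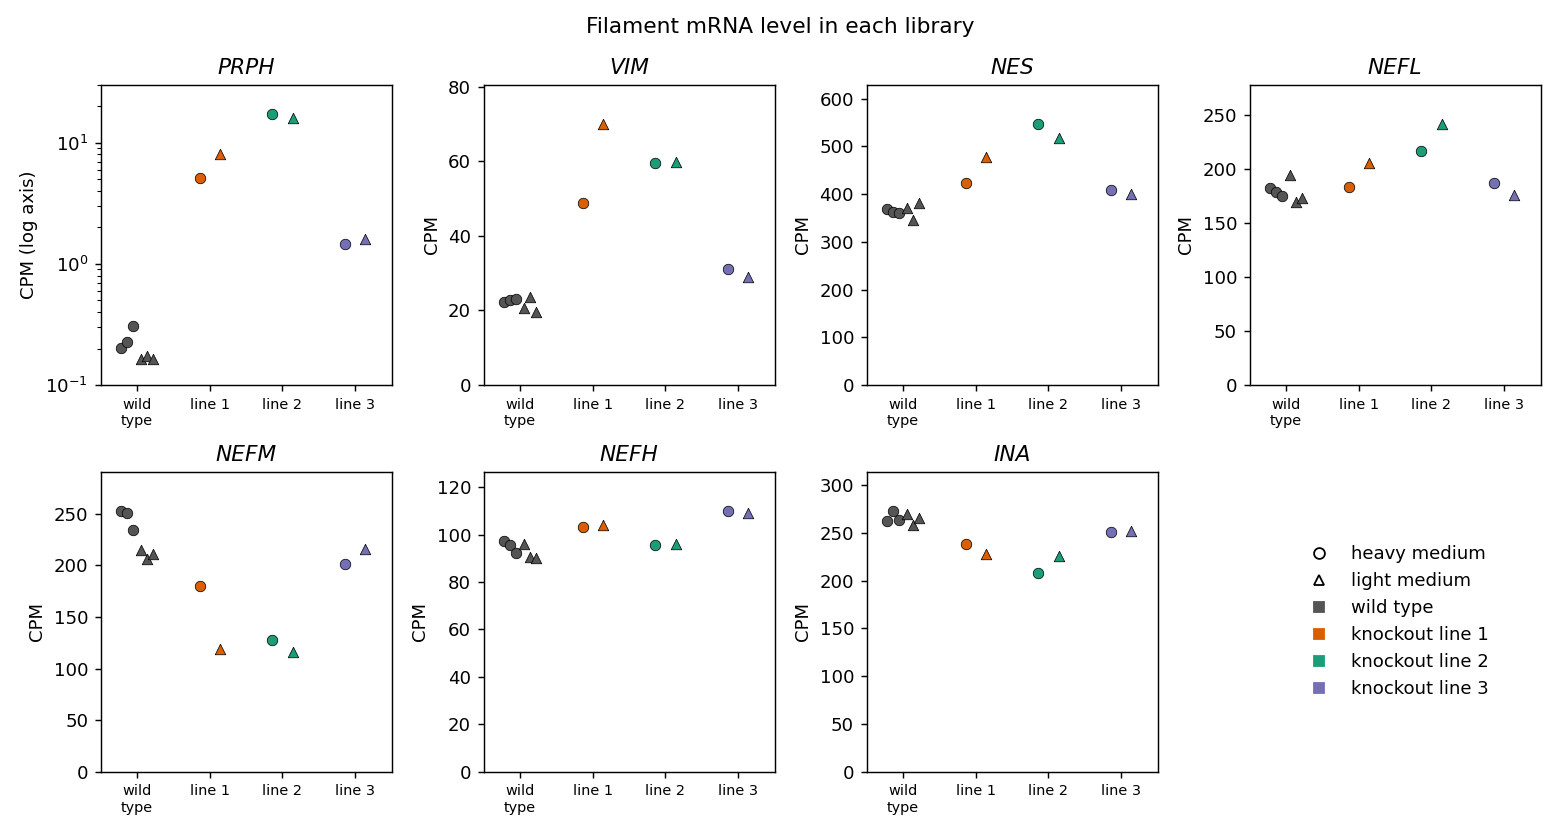
CPM of each filament gene (vertical axes; log axis for PRPH, from 0 for the others) in the 12 libraries, by wild type and knockout line; circles are heavy and triangles light medium, and each point is 1 library. PRPH, VIM and NES points of all lines lie above wild type, INA points lie below it, and NEFM falls from about 228 CPM in wild type to 122 CPM in line 2.

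By log2 fold change the lines thus showed an order for most members, line 2 farthest from wild type and line 3 nearest. Between lines 1 and 2 only PRPH passed in edgeR, and the other members had an adjusted p of 0.334 to 0.986. Without its heavy library line 1 moved beyond the full value of line 2 for VIM (1.71 against 1.44) and NEFH (0.17 against 0.04). Line 1 then came close for NEFM (-0.87 against -0.90), and stayed nearer to wild type for PRPH, NES, NEFL and INA. In line 2, 6 of 7 genes passed (43.0% of all genes), in line 1 also 6 (28.2%) and in line 3 3 (5.0%): PRPH, VIM and NEFH. Line 1 without its light library kept 4 of its 6 calls. The test of the lines against one another called PRPH, VIM, NES and NEFL, 4 of 7, where 12.7% of all genes passed. Its counts rest on single libraries: without line 2 heavy, 1 member and 228 genes passed, without line 2 light 2 and 693, and without line 3 light 1 and 717, against 2062 genes with all 6 libraries. Without line 3 heavy it was 4 and 1327, and without line 1 heavy or light 5 and 3628 or 3567. Across the 12 libraries the log2 CPM of PRPH ran with that of VIM (r = 0.97) and NES (0.95) and against that of INA (-0.95) and NEFM (-0.89), and least with NEFH (0.43). These are descriptions over 12 libraries, in which each line gives a pair.

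**Figure D3:**
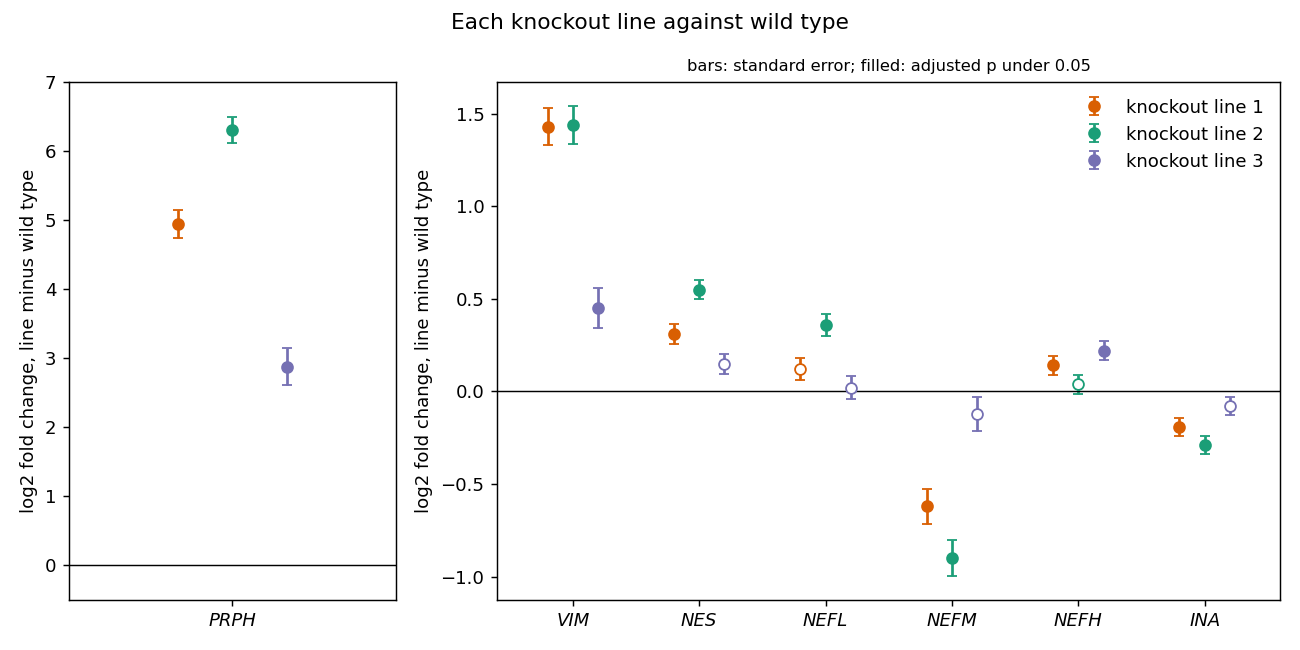
Log2 fold change of each knockout line against wild type (vertical axis), with bars for the standard error and filled points for an adjusted p under 0.05. PRPH has its own panel and scale, with 4.95, 6.31 and 2.88 in lines 1, 2 and 3; among the other 6 genes line 3 lies nearest to 0 except for NEFH.

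The summed length-scaled level of the 7 genes stayed close to wild type while its make-up shifted. The sum was 257 to 278 RPKM in wild type and 271 to 286 RPKM in knockout. In wild type INA made up 30.4% ± 0.673 of it, NES 24.3% ± 0.789 and NEFM 19.3% ± 1.32 (SD, n = 6). In line 2 NES took the largest share, 34.8% in heavy and 32.5% in light medium, ahead of INA at 22.7% and 24.5%, and NEFM held 10.3% and 9.23%. In line 1 NES was also ahead of INA in both media (28.1% against 27.1%, and 31.4% against 25.7%). In line 3 INA remained ahead, at 28.2% and 28.4%, with NES at 26.7% and 26.2%. The order of INA and NES in wild type turns without length scaling, where INA held 23.0% and NES 31.6%. VIM and PRPH, the class III filaments, together had 3.81 to 4.60 RPKM in wild type, 15.5 and 15.2 RPKM in line 2, 10.6 and 15.4 RPKM in line 1, and 6.37 and 5.99 RPKM in line 3. PRPH remained a minor member everywhere, with at most 1.40% of the sum.

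**Figure D4:**
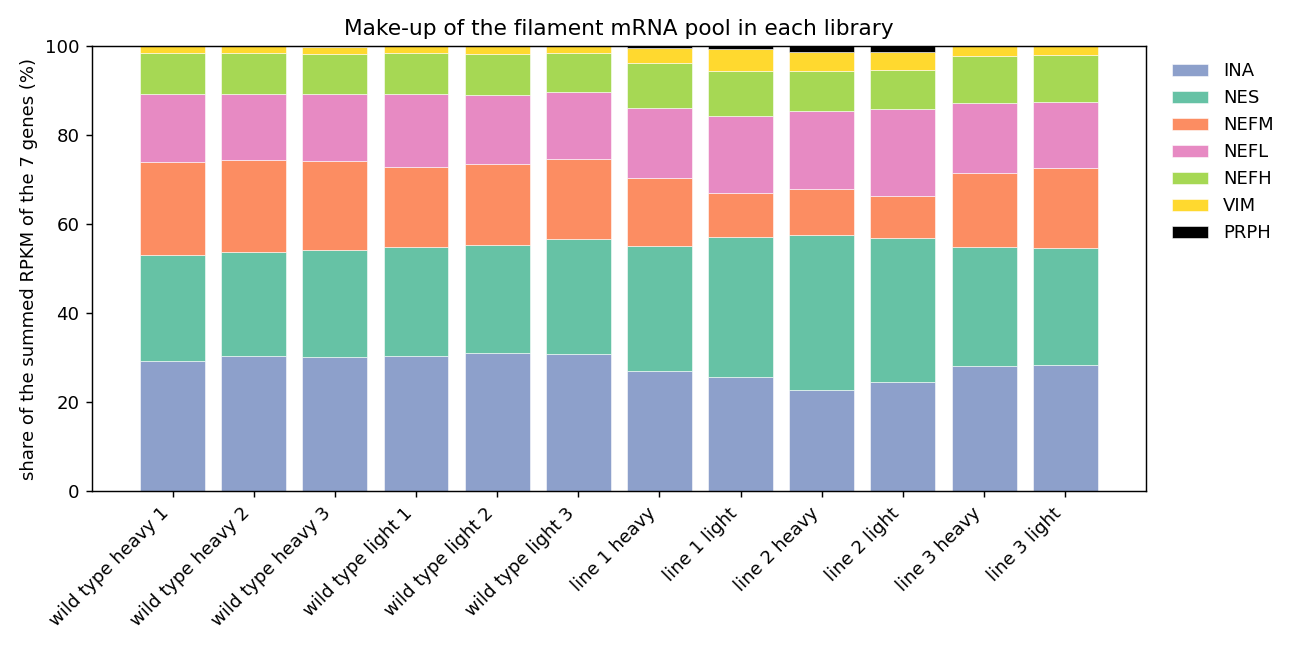
Share of each filament gene in the summed RPKM of the 7 genes (vertical axis, per cent) in each library. INA is the largest block in wild type at 30.4% on average and NES in lines 1 and 2, while NEFM shrinks from 19.3% to 9.23% in the light library of line 2.

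The medium had no called effect on any member in the filtered fits. For heavy against light medium, 0 of the 6 members tested passed in wild type and 0 of 7 in knockout in edgeR, DESeq2 and limma-voom. After adjustment 0.00631% and 0.0% of all genes passed in edgeR. At an unadjusted p under 0.05 in edgeR, a level that 5.1% and 2.82% of all genes reached, there were 1 and 0 members. The 1 was NEFM, 246 ± 10.5 CPM in wild-type heavy against 211 ± 4.81 CPM in wild-type light libraries (SD, n = 3 each; log2 0.23, SE 0.0488, adjusted p = 0.375), with ranges that did not overlap. With no filter on low counts edgeR called it (adjusted p = 0.0259). PRPH was too low to be tested in wild type alone. The interaction of genotype and medium passed for 0 of 7 members in all 3 tools, with 0.0% of all genes called. At an unadjusted p under 0.05 in edgeR, a level that 0.892% of all genes reached, there were 0 members. For PRPH the interaction was estimated at -0.64 with an SE of 1.88, so that a sizeable interaction was not detectable with these libraries.

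The nuclear lamins were the most abundant of the other filament genes. Of 22 further genes of the family 10 were tested; 2 rose, 2 fell and 6 did not pass, and their median log2 fold change was -0.01. The A-type lamin gene LMNA rose from 103 ± 6.85 to 134 ± 17.7 CPM (log2 0.37, SE 0.08, adjusted p = 0.00689), and the B-type lamin genes LMNB1 (-0.27, adjusted p = 0.0215) and LMNB2 (-0.30, adjusted p = 0.0418) fell. KRT19, a simple-epithelium keratin, rose from 1.04 to 2.69 CPM (log2 1.35, adjusted p = 0.00271). LMNA was at 144 CPM in lines 1 and 2 and at 113 CPM in line 3. Glial filament gene GFAP and 5 keratin-type genes (KRT5, KRT14, KRT20, KRT23 and KRT222) were at 0 in every library, and the muscle filament gene DES was at 0.0353 CPM in wild type.

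Among 41 genes of filament linkers, motors, kinases, proteases and chaperones, 36 were tested, of which 8 rose and 4 fell (median 0.03), where 15.0% of all genes rose and 9.78% fell. KIF5A, a neuronal kinesin heavy chain that carries neurofilaments along axons, rose from 38.6 ± 1.4 to 58.7 ± 11.9 CPM (log2 0.60, SE 0.112, adjusted p = 0.00408). The spectraplakin gene MACF1, a linker of actin and microtubules, fell by 0.31 (-0.31, adjusted p = 0.00213). BAG3, a chaperone partner of small heat-shock proteins, fell from 3.77 to 2.06 CPM (log2 -0.87, adjusted p = 0.00799), and the protease gene CAPN1 rose (0.27, adjusted p = 0.0109). Of 31 genes of neuronal microtubules and the membrane skeleton, all tested, 8 rose and 1 fell, STMN1, named after its values were seen (median 0.08), against the same 15.0% and 9.78% of all genes. STMN4, a stathmin that binds tubulin, rose from 35.9 ± 2.65 to 73.5 ± 25.7 CPM (log2 1.03, SE 0.208, adjusted p = 0.00783). MAP6 (0.44), MAP2 (0.29) and DPYSL2 (0.20) rose too, and STMN1 fell (-0.12), with an adjusted p that rounds to the threshold. STMN4 had 104 CPM in line 2, 67.0 in line 1 and 49.7 in line 3.

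The genes whose log2 CPM ran most like a member's over the 12 libraries were found by Pearson's r, as a description. For PRPH they were the potassium channel gene KCNT1 (0.994), the G protein gamma subunit gene GNG3 (0.994) and neuropeptide Y, NPY (0.993), which went from 3.26 CPM in wild type to 101, 150 and 22.5 CPM in lines 1, 2 and 3. For VIM they were ZNF185, KCNH6 and the noradrenaline transporter gene SLC6A2 (0.993 to 0.994), the last at 53.0 CPM in wild type and 159, 173 and 79.9 CPM in the lines. For NEFM they were the histone methyltransferase gene EZH2 (0.991), PDE7A (0.989) and HMGB2 (0.988), and EZH2 went from 128 CPM to 84.2, 68.5 and 110 CPM. For NES they were PLPPR5 (0.991), KIF5C and REEP5 (0.989 each), and for INA they were ZBED4, UBE2R2 and RBM15B (0.973 to 0.978). NEFH had the weakest matches, SYT4 (0.89), SEC24D (0.88) and NUDT19 (0.861).

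Markers of other cell types moved with the lines. Of 8 Schwann cell and glial genes 4 were tested and 3 rose (PMP22, ERBB3 and S100B). Their summed level was 7.86 to 9.35 CPM in wild type. The heavy and light libraries summed to 22.0 and 31.7 CPM for line 1, to 32.8 and 36.7 CPM for line 2, and to 12.2 and 11.6 CPM for line 3. PMP22 made up most of it (5.91 CPM in wild type, 29.2 CPM in line 2). SOX10 and GFAP, defining genes of these cells, were at 0 in every library. Of 8 mesenchymal genes 7 were tested, 1 rose and 1 fell. CD44 rose from 0.471 to 1.86 CPM, TWIST1 fell by 0.41 (-0.41, adjusted p = 0.00456), FN1 had -1.18 (adjusted p = 0.0593) and COL1A1 -1.01 (adjusted p = 0.0593). Their sum was lower in knockout, 225 to 349 CPM against 377 to 402 CPM. TWIST1 alone made up most of that sum (334 CPM in wild type, 251 CPM in knockout). PRRX1 was at 0 in every library, while the mesenchymal filament gene VIM was higher. Epithelial genes summed to at most 5.60 CPM, muscle genes to at most 4.18 CPM, and endothelial and blood genes to at most 0.0846 CPM; in the muscle list ACTA2 rose (log2 0.98, adjusted p = 0.0152). Of the 10 neuroblast and sympathetic genes 2 rose and 2 fell: ELAVL4 (0.72) and CHGB (0.48) rose, and DBH (-0.72) and GATA3 (-0.35) fell. The part of these marker changes in the filament results was not tested.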

How the data were processed

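The authors deposited unnormalised counts, 1 whole number per gene and library, for 12 libraries. The submitters' processing notes name bcl2fastq 2.19.0, the aligner STAR 2.7.0f, Subread 1.6.4 (featureCounts), DESeq2 1.22.1 and R 3.5.1, with the build GRCh38.p13. The annotation release, the strand setting and how multi-mapping reads were counted were not stated there. Per the labels' protocols, RNA was poly(A)-selected and libraries were stranded. Counts were tested with edgeR 4.0.16 in R 4.3.3 (TMM, filterByExpr, robust quasi-likelihood F tests), with medium as a covariate where both media entered. Standard errors come from the F statistic. DESeq2 1.42.0 and limma-voom (limma 3.58.1) were alternatives. Each line was compared with wild type in 1 fit of all 12 libraries. CPM uses TMM-scaled totals, and RPKM divides it by summed exon length from GENCODE 29. Log2 CPM for correlations used a prior count of 2.

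Always named were FMR1 and the members, the 3 genes most correlated with each member called over both media (mean of at least 1 log2 CPM), and up to 4 members per gene list with the smallest p. The members and lists were chosen with earlier results of these data known. The tests were tried on simulated data. Same-numbered libraries of the 2 genotypes had correlated deviations between -0.147 and 0.0151, so wild-type numbers do not pair with lines; knockout libraries of 1 number share a line, per the labels. Feature positions were matched by symbol.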

Additional observations from a re-analysis of the deposited data

Results flagged for a closer look

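The knockout lines differed from one another in 4 filament genes by edgeR's quasi-likelihood test, fitted to the 6 knockout libraries with a term for medium. The adjusted p was 2.26e-05 for PRPH, 0.00615 for VIM, 0.0218 for NES and 0.0441 for NEFL. PRPH was called in all 6 fits without 1 knockout library (adjusted p up to 0.00549). VIM was called in 4 of them, and not without line 2 heavy (0.0598) or line 3 light (0.084). NEFL was called in 3, and not without line 2 heavy, line 2 light or line 3 light (up to 0.457). NES was called in 2, those without a library of line 1, and reached 0.338 without line 2 heavy. Line 1 in heavy medium, which had the most FMR1 mRNA of the knockout libraries, was also nearer to wild type than line 1 in light medium for all 7 members, each set against the wild type of its medium. Mean FMR1 was 16.9, 12.1 and 8.12 CPM in lines 1, 2 and 3, and line 3 was nearest to wild type for most members. A relation between the FMR1 level and the members was not tested. What sets the heavy library of line 1 apart was not tested either.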

How the results depend on the processing

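Over both media, 4135 genes passed; 272 passed with counts summed per line, 2327, 1710 and 7415 without line 1, 2 or 3, and 2632 to 5907 without 1 library. Of the 7 members 6 passed, 0 on summed lines, 3 without line 1 and 4 to 6 without 1 library. With the replicate number as a block 4484 genes and the same number of members, 6, passed; the numbers do not pair the genotypes. In heavy medium 18 genes passed, against 809 in DESeq2, 1 in limma-voom, 775 with no filter, 9 with at least 1 CPM in at least 3 libraries, 94 with the replicate block, 99 with the spread of all 12 libraries and 0 to 2243 without 1 library. Members called there numbered 0, but 3 in DESeq2, 1 with no filter (NES) and 0 to 4 without 1 library (PRPH, VIM and NEFM without line 2, and NES too without line 3). In light medium 231 genes passed, against 1723 in DESeq2, 135 in limma-voom, 1351 with no filter, 153 with the replicate block, 616 with the shared spread and 4 to 6240 without 1 library; members were 0, but 3 in DESeq2, 1 with no filter (NES), 1 with the block, 1 with the shared spread (PRPH in both) and 0 to 6 without 1 library, the 6 without line 3. Against wild type, line 1 had 1538 to 4926 genes, line 2 had 4200 to 7456 and line 3 had 287 to 1269 without 1 library, and line 3 had 1387 with no filter; its members called were 1 to 3. Among the lines 3411 genes passed with no filter and 228 to 3628 without 1 library, with 1 to 5 members. Between media, wild type gave 1 gene, 9 in DESeq2, 39 with no filter (1 member, NEFM), 13 with the replicate block and 0 to 8 without 1 library; knockout gave 0, 41 with no filter and 0 to 18 without 1 library. Without length scaling the shares were 1.91% for VIM in wild type, 8.12% and 8.45% for NEFH, 23.0% and 19.2% for INA and 31.6% and 37.8% for NES in wild type and knockout, so that NES leads INA in wild type as well. Of 1052 values of single members under the alternatives 957 kept their side of the threshold, 64 lost a call, 31 gained one and 0 called values changed sign; 24 uncalled values did. The cause of these differences was not tested. PRPH at 5 to 11 reads in wild type limits the precision of its fold change.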
